A study of Homo sapiens with 9 samples.

Results

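The cytosolic ribosomal protein genes are the 77 genes of 62700 in the count table whose symbol is RPS or RPL followed by a number (with A or X where the symbol has it), or is RPSA, RPLP0, RPLP1 or RPLP2. Pseudogenes and the RPS6 kinases were left out. The set holds 31 genes of the small (40S) subunit and 46 of the large (60S) subunit, and all 77 passed the filter on low counts, as did 17576 genes in all. Their RNA was measured by bulk sequencing after polyA selection in 293T, a transformed line of human embryonic kidney origin. Plasmids were delivered by transient reverse transfection. One group received HA-CIC(ex20)::NUTM1(ex6), here called CIC::NUTM1, another received HA-CIC::DUX4, here called CIC::DUX4, and the controls received the vector without an insert (empty vector). CIC is a transcriptional repressor that is found fused to DUX4 or NUTM1 in sarcomas. Each group had 3 libraries, with 300000 cells per condition, replicates transfected on different days and RNA taken about 48 hours later. All groups are the same line, the promoter of the plasmids is not named in the labels, and the transcripts of the fused genes were not analysed here. No group was untransfected, so each comparison is against cells that received a plasmid and the transfection reagent.

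Ribosomal proteins are made in near-equal numbers and assembled on ribosomal RNA in the nucleolus, and the 40S subunit then reads the mRNA while the 60S subunit joins amino acids. Most of their mRNAs begin with a C followed by a run of pyrimidines, the 5′ terminal oligopyrimidine (TOP) motif, through which mTOR and LARP1 adjust their translation together. Their mRNAs are short, very abundant and long-lived, and the human genome carries many processed pseudogenes of them.

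The start sites are shown first because the TOP motif is known from most ribosomal protein mRNAs. Translation itself was not measured here. RefSeq start windows (GRCh38.p14) were matched by symbol for 62 of the 77 members. Each line gives 30 bases, 20 before the start site and 10 from it on, 5′ to 3′ on the gene's strand. Capitals mark the unbroken pyrimidine run that begins with C at the start base.
RPL22 at chr1:6199586-6199615, minus strand: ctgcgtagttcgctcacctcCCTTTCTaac
RPL7A at chr9:133348198-133348227, plus strand: attacccacaattccctttcCTTTCTCTCT
RPL41 at chr12:56116613-56116642, plus strand: gtagacggaacttcgcctttCTCTCggcct
RPL39 at chrX:119791621-119791650, minus strand: gctcgttcttccgccagcttCCCTCCTCTT
RPS27 at chr1:153990742-153990771, plus strand: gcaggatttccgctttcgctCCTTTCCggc
RPLP1 at chr15:69452798-69452827, plus strand: gctgcgtataggcgcgagagCCCCTTTCCT
RPS10 at chr6:34426060-34426089, minus strand: cagcaccgcgcatgctccttCCTTTCCagc
RPL36A at chrX:101390991-101391020, plus strand: ttccgtttgcctcgcggtttCTTTCTTTCC
RPS7 at chr2:3575240-3575269, plus strand: ttccggtttccgccctcctcCTCgcgctgt
RPS4X at chrX:72277239-72277268, minus strand: cgcgcgcagtctccagccccaatttctacg
RPS29 at chr14:49598701-49598730, minus strand: ttttcccccgagcgcgcagctggcagcggt

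The first 8 begin with C and at least 4 further pyrimidines. RPS7 has a shorter run, and the listed starts of RPS4X and RPS29 do not begin with C. Over all 62 matched members, 46 (74.2%) had a start with C and 4 or more pyrimidines after it, against 5.14% of the 27305 gene symbols in the table. A C at the first base was found for 79.0% of members and 18% of all symbols. The stricter form TCT, with C as the first base and read on the gene's strand only, stood at the start of 22.6% of members and 2.75% of all symbols. In the window from 250 bases before to 50 bases after the start, the letters CCGGAAGT, searched on both strands, occurred in 14.5% of members and 4.95% of all symbols. CTTTCC, which can overlap the TOP run itself, occurred on either strand in 48.4% and 30.2%. The octamers TGAATGAA and TGAATGGA, which CIC is known to bind, were present on either strand in 1.61% and 0% of members, and in 2.03% and 1.27% of all symbols. These are matches of letters in a reference window, not measured sites. A gene with several listed starts was counted once if any of them matched, and the sets with the letters were not tested against each other.

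Ribosomal protein genes ranked among the most abundant transcripts of the cells. In empty vector, 31 members were among the 100 genes with the highest CPM (counts as parts of the library total, scaled up to a common total with trimmed mean of M values factors, TMM) and 66 among the top 500. The median member stood at 758 CPM. RPS2, a 40S protein near the mRNA entry channel, was the highest by CPM, with 4529, 4554 and 4959 CPM in the 3 empty vector libraries, and alone made up 6.57% of all member counts. The 10 highest members together made up 32.0%.

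**Figure D1:**
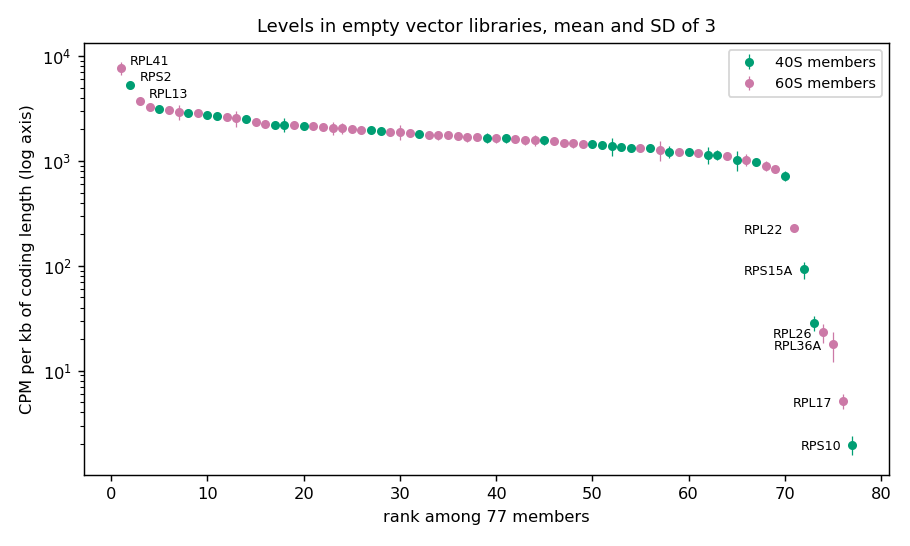
Level of each of the 77 members in empty vector, as CPM per kb of coding length on a log axis, ranked from highest to lowest; points are means and bars SDs of 3 libraries, green for 40S and pink for 60S genes. Most members lie between RPS26 at 719 and RPL41 at 7659, and RPL22 and the 6 genes of lowest level fall away below them.

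Levels of different genes were compared per kb of coding length (GENCODE 29, principal isoform). RPL41, which encodes a peptide of only 25 residues, was highest at 7659 ± 1073 CPM per kb (SD, n = 3), although most of its mRNA is untranslated and a coding length therefore overstates its level. RPS2 followed at 5325 ± 275, RPL13 at 3707 ± 168, the stalk protein RPLP1 at 3299 ± 280 and RPS15 at 3104 ± 222 CPM per kb. The neighbours RPLP1 and RPS15 did not differ beyond their SDs. The median was 1444 CPM per kb for the 31 genes of the 40S subunit and 1749 for the 46 of the 60S subunit.

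At the other end, 6 members had fewer than 50 CPM in every group, a limit set after their levels were seen. RPS10, a 40S protein of the beak, was lowest, with 1.20, 0.877 and 0.840 CPM in empty vector and 282 counts over all 9 libraries. RPL17, at the exit of the peptide tunnel, had 3.31, 2.40 and 2.76 CPM, and RPL36A had 7.54, 5.58 and 3.92 CPM. RPL26 had 12.3, 8.51 and 9.40 CPM, and RPS15A was the highest of the 6 with 43.4, 30.3 and 34.7 CPM. The next member upward, RPL22, had 88.6, 86.6 and 88.1 CPM. The 6 thus lay well under the rest of a set whose proteins are made in near-equal numbers.

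Each of these 6 genes shares bases of its exons, on the same strand, with another annotated gene in GENCODE 29, between 3.26% of them for RPS15A and 39.4% for RPS10. The partners are read-through genes such as RPS10-NUDT3, RPL17-C18orf32 and RPL36A-HNRNPH2, and unnamed loci, as for RPL26 and RPS15A. All of those partners were listed at 0 counts in all 9 libraries. Among the 77 members, 13 share exon bases in this way with a gene other than a small RNA, and 6 of these 13 were under 50 CPM, against 0 of the other 64. The 13 include RPS2, at 25.6% of its exon bases, and RPL22, whose partners were also listed at 0, and RPS13 and RPL36, whose partners had counts. How reads in shared bases were counted is not given in the sources used here, so its part in these low values was not tested.

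Reads of ribosomal protein pseudogenes were few. Of 1588 annotated ones, 634 had at least 1 count, and together they took between 0.0986% and 0.121% of the counts of a library, or 1.53 to 1.67 counts per 100 counts of the parent genes. RPS2P5, a copy of RPS2, held 49.9% of them. For 3 of the low genes the pseudogenes had more counts than the parent: over 9 libraries RPL17 had 537 counts and its pseudogenes 1360, RPL36A had 1293 and 2464, and RPS10 had 282 and 362. Reads of near-identical copies may be split between gene and pseudogene, so the levels of these genes are uncertain, as are those of RPL26, with 28.0% of the joint counts in its pseudogenes, RPL41, with 12.2%, and RPS2, with 11.4%.

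The first comparison across groups was the summed share of a library's counts taken by all 77 members. It was 7.53%, 6.80% and 7.29% in empty vector (7.21% ± 0.370, SD, n = 3), 6.44%, 6.82% and 7.37% with CIC::DUX4 (6.88% ± 0.469), and 6.85%, 6.62% and 6.86% with CIC::NUTM1 (6.78% ± 0.138). The share was lower with either fusion on average, but the libraries of every pair of groups overlapped. The difference from empty vector was -0.326 percentage points with CIC::DUX4 (exact permutation test, two-sided, p = 0.5) and -0.428 with CIC::NUTM1 (exact p = 0.3). The fusions differed by -0.102 points, CIC::NUTM1 minus CIC::DUX4 (exact p = 0.9), and this difference turned to 0.112 points when TMM-scaled totals were the denominator. Groups of 3 cannot reach an exact p below 0.1, and with Benjamini-Hochberg adjustment over the 12 share tests these values became 0.75, 0.75 and 0.9. Both comparisons with empty vector use the same 3 control libraries.

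**Figure D2:**
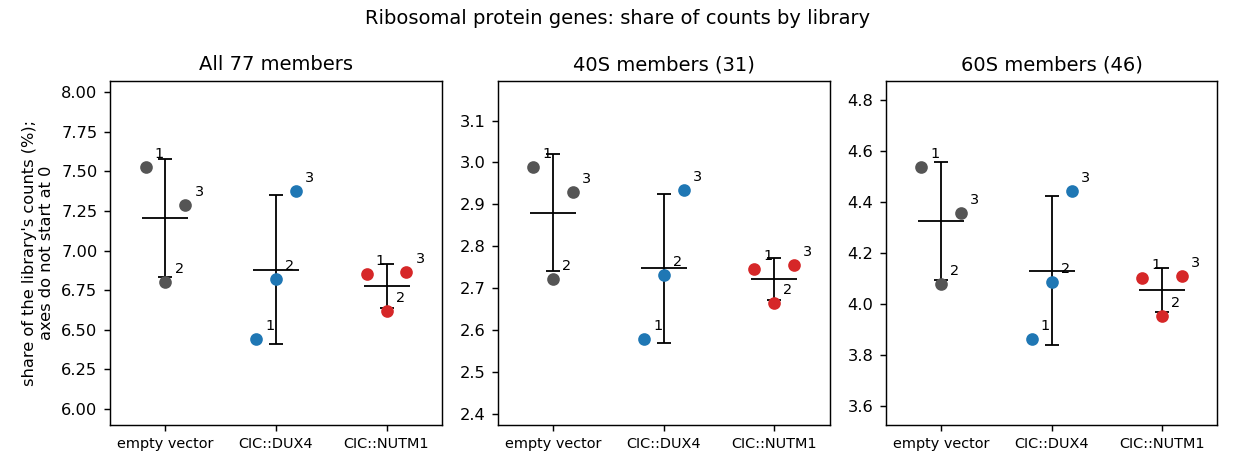
Share of counts by library for all members, the 40S genes and the 60S genes; points are libraries numbered by replicate, the horizontal bar is the mean and the whiskers the SD of 3, and the axes do not start at 0. Empty vector replicates 1 and 3 and CIC::DUX4 replicate 3 are the 3 highest libraries in each panel, and CIC::DUX4 replicate 1 is the lowest.

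By subunit, the groups overlapped as well. The 40S genes held 2.88% ± 0.140 of counts in empty vector, 2.75% ± 0.178 with CIC::DUX4 and 2.72% ± 0.0504 with CIC::NUTM1 (SD, n = 3 each). The 60S genes held 4.33% ± 0.231, 4.13% ± 0.291 and 4.06% ± 0.0880 of counts in the same order. The ratio of 60S to 40S counts was nearly constant, at 1.518, 1.499 and 1.488 in the empty vector libraries, 1.499, 1.497 and 1.514 with CIC::DUX4 and 1.494, 1.485 and 1.492 with CIC::NUTM1. It was lower by 0.0130 with CIC::NUTM1 than with CIC::DUX4, without overlap of the libraries, which is the smallest exact permutation p that 3 against 3 can give (p = 0.1, two-sided, adjusted p = 0.75 over 12 tests). Neither fusion differed from empty vector in this ratio beyond the spread of the libraries (exact permutation p = 0.9 with CIC::DUX4 and 0.4 with CIC::NUTM1).

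Each gene was then tested on its own, and called where the edgeR p, adjusted by Benjamini-Hochberg over 17576 genes, was under 0.05. With CIC::DUX4, 0 of 77 members were called, where 8.24% of all tested genes were, 6.96% as higher and 1.27% as lower. At an unadjusted p under 0.05, 2 members were higher and 7 lower, against 12.6% and 6.57% of all genes. The CIC::DUX4 libraries lay entirely above the controls for 2 members and entirely below for 9, against 14.8% and 11.0% of all genes. DESeq2 called 0 members, and limma-trend called 1, RPS4X. RPS4X, the X-linked copy of the 40S protein eS4, was at 2215, 2093 and 2221 CPM in controls. The CIC::DUX4 libraries had 1868, 1973 and 2074 CPM. Its 3 CIC::DUX4 libraries lay below the 3 controls, with a log2 fold change of -0.14 ± 0.05 (SE, edgeR adjusted p = 0.0782; limma-trend adjusted p = 0.0497). RPL7A (-0.13), RPL15 (-0.13), RPL7 (-0.12) and RPS3 (-0.12) had the next lowest log2 fold changes, with edgeR adjusted p between 0.115 and 0.233. RPL7A and RPL7 are 60S proteins, and RPS3 lines the mRNA entry channel. The members between these and the 5 highest ran from RPS14 at -0.11 to RPS12 at 0.02.

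The highest log2 fold changes with CIC::DUX4 belonged to low genes, among them RPS10 at 0.60, RPL36A at 0.45, RPL26 at 0.37 and RPS15A at 0.10, none of them called (edgeR adjusted p 0.192 to 0.742). RPL26 had 12.9, 12.4 and 13.5 CPM with CIC::DUX4, just above the highest control of 12.3 CPM. The 3 control libraries of RPL26 ranged from 8.51 to 12.3 CPM, a wide spread for a member. RPS10 with CIC::DUX4 had 1.64, 1.48 and 1.23 CPM, values that rest on 43, 31 and 21 counts.

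Although no single gene passed, the members leaned 1 way: 66 of 77 had a log2 fold change below 0 with CIC::DUX4, with a median of -0.05, while 50.3% of all tested genes lay below 0 with a median of 0.00 (-0.0015). Both subunits did so, 25 of 31 genes of the 40S and 41 of 46 of the 60S subunit. Members share libraries and are not independent of each other, so this count carries no test, and it rested on single libraries. Without empty vector replicate 1, 39 of 77 were below 0, and without CIC::DUX4 replicate 1, 35 were. Without CIC::DUX4 replicate 3 it was 72, and RPS4X, RPL7A and RPL15 then passed as lower (log2 fold changes -0.18, -0.17 and -0.18). In that fit 229 genes were called lower in all. The 95% interval of the log2 fold change lay within 0.5 of 0 for 69 of 77 members, against 51.9% of all genes. The 8 others included RPL17, RPL26, RPL36A and RPS10, of the low genes, and RPL38, RPL39 and RPS29, which have some of the shortest coding sequences.

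With CIC::NUTM1, 0 members were called higher than empty vector and 2 lower, where 11.5% of all genes were called higher and 3.83% lower. The genes that fell were RPL22 and RPL15. At an unadjusted p under 0.05, 1 member was higher and 5 were lower, against 16.6% and 10.3% of all genes. The libraries of 0 members lay entirely above and of 4 entirely below the controls (RPL41, RPL22, RPL15 and RPL29), against 18.2% and 12.9% of all genes.

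RPL22 (ENSG00000116251, chr1:6185020-6209389, minus strand), a 60S protein that is dispensable for translation and has a paralog, RPL22L1, had 88.6, 86.6 and 88.1 CPM in empty vector. With CIC::NUTM1 it had 75.9, 74.3 and 74.9 CPM, and with CIC::DUX4 85.4, 79.5 and 80.8 CPM. All CIC::NUTM1 libraries and all CIC::DUX4 libraries lay below all controls. It fell by 0.23 ± 0.07 (SE) on the log2 scale with CIC::NUTM1 (edgeR adjusted p = 0.0259). Its log2 fold change with CIC::DUX4 was -0.10 ± 0.07 (adjusted p = 0.484), and the difference between the fusions, -0.13 ± 0.07, was not called (edgeR adjusted p = 0.35). RPL22 kept its call in 10 of 10 other settings of scaling, filter, tool and design, and in 2 of 6 fits that left out 1 library, with adjusted p from 0.0379 to 0.0839 (edgeR) and the same direction in all 6. It was lost without CIC::NUTM1 replicate 2 or any 1 of the empty vector replicates.

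RPL15, a 60S protein needed for rRNA processing, had 1493, 1356 and 1447 CPM in empty vector and 1298, 1265 and 1295 CPM with CIC::NUTM1. The groups did not overlap, and RPL15 fell by 0.15 ± 0.05 (-0.155, SE) on the log2 scale (edgeR adjusted p = 0.0445). With CIC::DUX4 it had 1229, 1308 and 1392 CPM and was not called (log2 fold change -0.13 ± 0.05, SE, edgeR adjusted p = 0.155). The difference between the fusions, -0.03 ± 0.05, was not called either (edgeR adjusted p = 0.861). The call with CIC::NUTM1 held in 9 of 10 other settings, failing with a minimum of 10 counts in every library. It held in 1 of 6 fits with a library left out, that without empty vector replicate 2, and the direction was the same in all 6 (edgeR adjusted p 0.0259 to 0.2).

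The lowest log2 fold change with CIC::NUTM1 was that of RPL41, -0.29 ± 0.11 (SE, edgeR adjusted p = 0.111). Its CIC::NUTM1 libraries (459, 472 and 479 CPM) lay below the controls (660, 500 and 563 CPM), which differed more among themselves than from the nearest CIC::NUTM1 library. RPL17 (-0.25), RPL39 (-0.22) and RPS29 (-0.21) followed, with overlapping libraries and edgeR adjusted p of at least 0.488. RPS10 had the highest value, 0.89 ± 0.41 (edgeR adjusted p = 0.157), from 1.86, 2.52 and 0.931 CPM, the last of which lies within the control range. RPL26 (0.12), RPL36A (0.09), RPS7 (0.06) and RPS2 (0.04) were next, all with adjusted p above 0.5 (edgeR, 0.528 to 0.851). RPS2 lay at -0.0064 when scaled by library totals. RPL41 passed in 2 of 10 other settings and without empty vector replicate 2. The members between the 5 lowest and 5 highest ran from RPL37 at -0.20 to RPL8 at 0.04.

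Of the 77 members, 65 had a log2 fold change below 0 with CIC::NUTM1 (median -0.06), against 50.1% of all genes (median 0.00, -0.00087). Scaling moved this more than for the other fusion. By library totals alone, 73 were below 0 with a median of -0.10, but the median of all 17576 genes shifted to -0.04 as well. In that setting 5 members were called lower, RPL3, RPL29 and RPS4X beside RPL22 and RPL15. So were 1149 of the 17576 genes tested. Over all genes, 75% of calls were higher with TMM and 60.7% with library totals. Without empty vector replicate 1 the number of members below 0 was 46, and 0 were called. Without empty vector replicate 2, 70 were below 0 and 4 were called lower, RPL15, RPL3, RPL41 and RPS23, among 399 genes called lower in all. The 95% interval lay within 0.5 of 0 for 66 of 77 members and for 47.8% of all genes.

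Between the fusions, 0 members were called in either direction (edgeR; DESeq2 and limma-trend also 0), where 6.61% of all genes were, 4.97% higher and 1.64% lower on the side of CIC::NUTM1. At an unadjusted p under 0.05, 3 members were higher and 1 was lower, against 10.8% and 7.37% of all genes. The libraries did not overlap for 6 members that were higher and 4 that were lower, against 12.6% and 9.36%. Among the lowest log2 fold changes were those of RPL36A (-0.37, edgeR adjusted p = 0.396), RPL17 (-0.25), RPL26 (-0.25) and RPS29 (-0.21). The highest were RPS10 (0.29), RPS2 (0.11), RPL4 (0.11), RPL7A (0.11) and RPS7 (0.11). RPL4, a long 60S protein that lines the peptide tunnel, had 2292, 2284 and 2324 CPM with CIC::NUTM1 and 2099, 2090 and 2199 CPM with CIC::DUX4, without overlap, yet its adjusted p was 0.16 (edgeR). The members in between ran from RPL37 at -0.19 to RPL8 at 0.10. Of 77 members, 44 lay below 0 (median -0.02), against 51.1% of all genes. By library totals the number was 56, and without CIC::DUX4 replicate 3 it was 13 (median 0.07). The interval lay within 0.5 of 0 for 67 of 77 members and 51.4% of all genes.

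Members with roles of their own, named for those roles, stayed within narrow intervals. The stalk of the 60S subunit, which recruits elongation factors, is built of RPLP0, RPLP1 and RPLP2. RPLP0 had 1593, 1551 and 1658 CPM in controls, 1474, 1477 and 1560 CPM with CIC::DUX4, and 1617, 1554 and 1630 CPM with CIC::NUTM1. The groups of RPLP0 overlapped, and the log2 fold changes were -0.09 (95% interval -0.19 to 0.01) and 0.00 (-0.10 to 0.10) with the 2 fusions in that order. RPLP1 (0.01 and -0.02) and RPLP2 (0.00 and -0.03) were as near to 0, with wider intervals for RPLP2 (-0.26 to 0.27 and -0.29 to 0.24). RPL5 and RPL11, which bind 5S rRNA and can restrain MDM2, were at -0.06 (-0.16 to 0.03) and -0.02 (-0.18 to 0.15) with CIC::DUX4. With CIC::NUTM1 they were at 0.02 (-0.08 to 0.11) and -0.04 (-0.21 to 0.13). RPS6, the 40S protein that S6 kinases phosphorylate, had 1493, 1410 and 1473 CPM in controls and overlapped with both fusions (-0.07, interval -0.17 to 0.04, and -0.04, interval -0.15 to 0.06). RPS19 and RPS14, whose loss is known from Diamond-Blackfan anaemia and the 5q- syndrome, were at 0.01 (-0.14 to 0.16) and -0.11 (-0.24 to 0.01) with CIC::DUX4. With CIC::NUTM1 they were at -0.02 (-0.17 to 0.14) and -0.07 (-0.20 to 0.05). All of these intervals include 0.

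**Figure D3:**
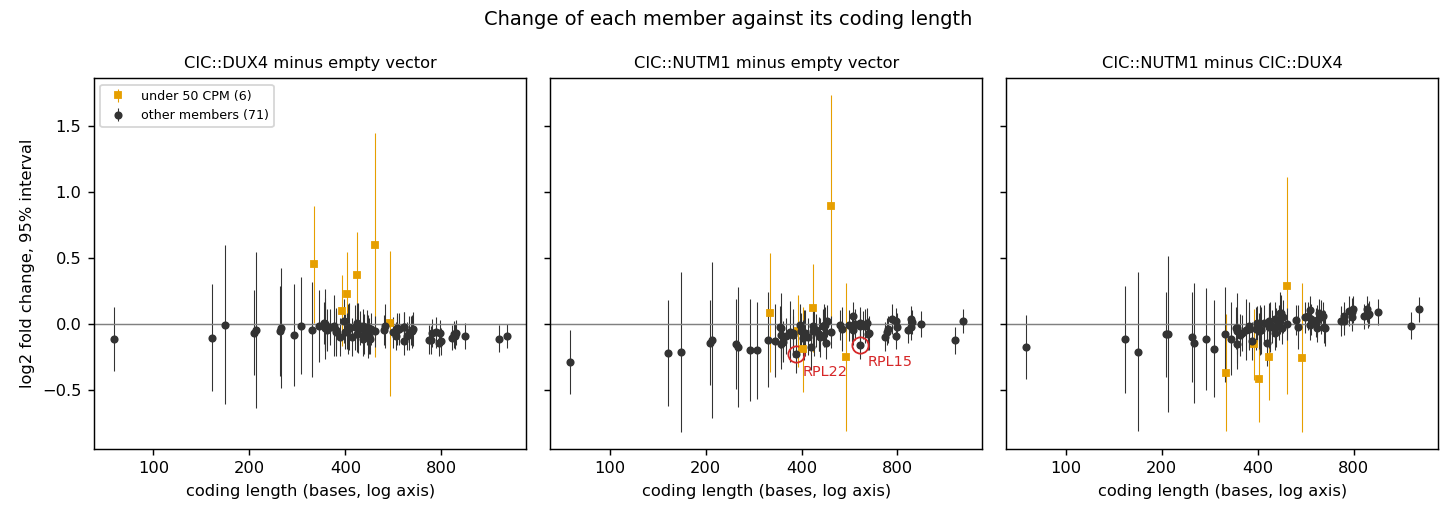
Log2 fold change of each member with its 95% interval (edgeR) against coding length in bases on a log axis, for the 3 comparisons; orange squares are the 6 genes under 50 CPM, black circles the other 71, and red rings the 2 called genes. Intervals widen toward short coding lengths, and in the right panel the black points climb from below 0 on the left to above 0 on the right.

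Members also showed an order by length in some libraries and comparisons, seen after the values were examined and given here without a test. In the comparison of the fusions, the 26 members with the shortest coding sequence (75 to 405 bases) had a median log2 fold change of -0.08, with 25 of 26 below 0. The 26 longest (576 to 1281 bases) had a median of 0.06, with 5 of 26 below 0. Over the 71 members of at least 50 CPM the Spearman correlation of coding length with the log2 fold change was 0.832 for this comparison, 0.636 for CIC::NUTM1 against empty vector and -0.436 for CIC::DUX4 against empty vector. These points share the same 9 libraries and their depths, and short genes also have the wider intervals. For CIC::DUX4 the sign depended on single libraries: it was 0.359 without CIC::DUX4 replicate 3 and 0.181 without empty vector replicate 2. For CIC::NUTM1 against empty vector it dropped to 0.133 without empty vector replicate 1, and between the fusions to 0.498 without CIC::DUX4 replicate 3.

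Among replicates of a single group, an order by length was marked in 4 of the 9 libraries. Deviations were taken from the mean of the same 3 libraries, so a library that departs to one side pushes its partners to the other. The 4 are therefore not separate observations. In empty vector replicate 1, 70 of 77 members lay above the mean of the group, and the deviation was largest for short genes (Spearman correlation with coding length -0.871, n = 71). In empty vector replicate 2, 76 lay below it, again most for short genes (0.829). CIC::DUX4 replicate 3 had 73 members above its group mean (-0.8002) and replicate 1 had 72 below (0.816). In the other libraries it was weaker or absent: the correlation was 0.458 in empty vector replicate 3, where 53 members lay above the mean, 0.0136 in CIC::DUX4 replicate 2, and 0.159, 0.316 and -0.455 in the 3 CIC::NUTM1 libraries. RPS29 and RPL38 had the largest spread among replicates of the 71 members. RPL38 had 333, 219 and 253 CPM in the 3 control libraries, 185, 260 and 334 CPM with CIC::DUX4, and 243, 231 and 266 CPM with CIC::NUTM1. RPS29 had 209.8, 134 and 176 CPM in controls, 128, 166 and 224 CPM with CIC::DUX4 and 134, 143 and 170 CPM with CIC::NUTM1. RPL5, which binds 5S rRNA and has a coding length of 891 bases, had 1559, 1545 and 1566 CPM in empty vector, the narrowest of these ranges.

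**Figure D4:**
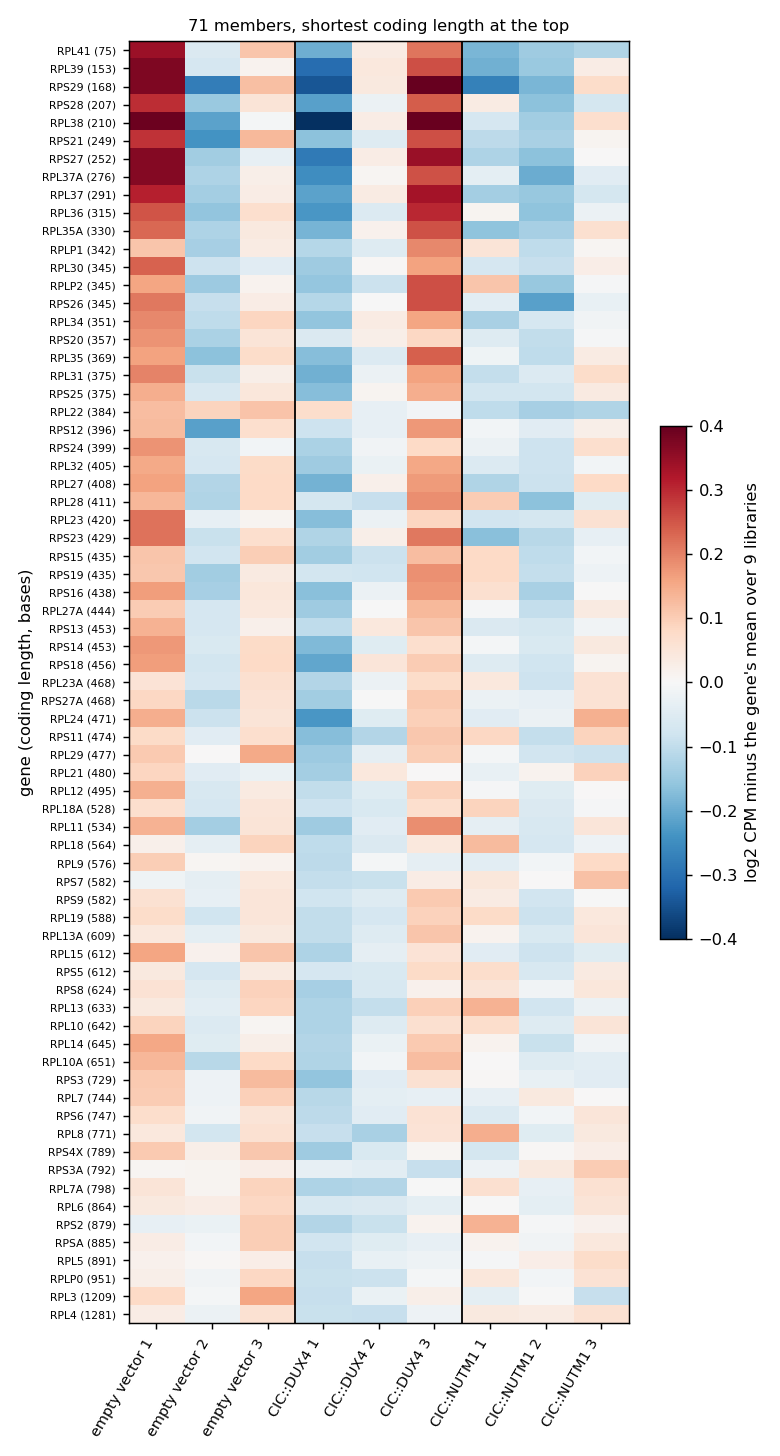
Log2 CPM of the 71 members of at least 50 CPM minus each gene's mean over the 9 libraries, with genes in rows from the shortest coding length (top) to the longest and libraries in columns; colours saturate at 0.4 in either direction. Empty vector replicate 1 and CIC::DUX4 replicate 3 are red at the top and CIC::DUX4 replicate 1 blue, and the colours fade toward the long genes at the bottom.

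The counts of the 26 shortest members divided by those of the 26 longest put this in 1 number per library. The ratio was 0.319, 0.264 and 0.276 in empty vector, 0.269, 0.293 and 0.323 with CIC::DUX4, and 0.265, 0.264 and 0.278 with CIC::NUTM1. Over protein-coding genes outside the set, 643 with a coding sequence in the short range and 4527 in the long range, the ratio was 0.1303, 0.1203 and 0.1251 in empty vector, 0.1176, 0.1248 and 0.1303 with CIC::DUX4, and 0.1142, 0.1165 and 0.1177 with CIC::NUTM1. Empty vector replicate 1 and CIC::DUX4 replicate 3 were highest in both. Empty vector replicate 2 was lowest for the members, but outside the set it lay above CIC::DUX4 replicate 1 and every CIC::NUTM1 library. The 2 highest are also 2 of the 3 libraries with the fewest counts, and CIC::NUTM1 replicate 1, the other, was not high (17293867, 16970771 and 17123926 counts). The part of this length order in the member counts below 0 was not tested, and RNA integrity or fragment sizes of the libraries are not given in the sources used here.

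**Figure D5:**
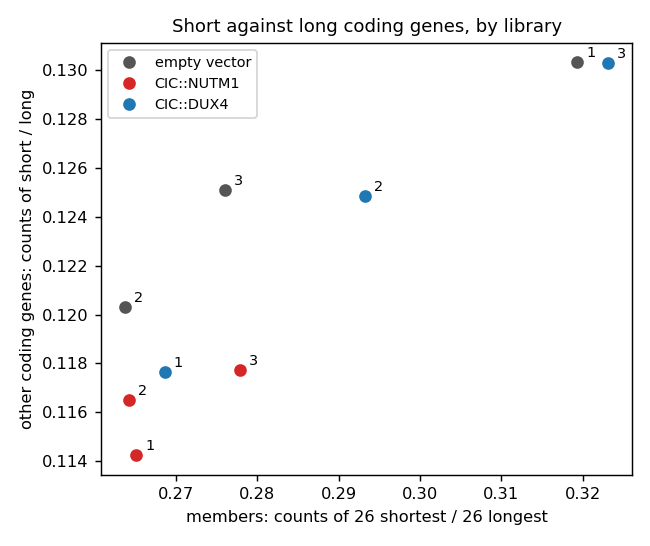
Each point is a library, numbered by replicate and coloured by group; the horizontal axis is the count ratio of the 26 shortest to the 26 longest members, and the vertical axis the same ratio for protein-coding genes outside the set. Empty vector replicate 1 and CIC::DUX4 replicate 3 lie together at the top right, and the CIC::NUTM1 libraries at the lower left.

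Other genes of the translation machinery were taken from fixed lists. FAU, which encodes a 40S protein fused to a ubiquitin-like domain, and RACK1, a scaffold on the 40S head, were called in no comparison (edgeR, DESeq2 and limma-trend, and not at an unadjusted p under 0.05). The log2 fold changes of FAU were 0.00, -0.04 and -0.04, and those of RACK1 -0.05, 0.03 and 0.08, for CIC::DUX4, CIC::NUTM1 and the comparison of both fusions in that order. Of 8 ribosomal protein paralogs, 6 were tested. RPS27L, a p53-responsive paralog of RPS27, had 24.7, 21.5 and 21.8 CPM in controls. With CIC::DUX4 it had 25.4, 31.2 and 33.5 CPM, all above the controls. It rose by 0.40 ± 0.11 (SE, edgeR adjusted p = 0.0237), and kept the call in 2 of 6 fits with a library left out. Of all genes, 6.96% were called higher in this comparison. RPL7L1 fell with CIC::NUTM1 by 0.16 ± 0.05 (edgeR adjusted p = 0.0487), from 542 ± 17.5 to 487 ± 15.8 CPM (SD, n = 3), and its log2 fold change with CIC::DUX4 was also -0.16 but was not called (adjusted p = 0.0778). The call for RPL7L1 held in 1 of 6 fits with a library left out, and 3.83% of all genes were called lower with CIC::NUTM1. RPL22L1, RPL26L1, RPL36AL and RPL39L were not called, and RPL22L1 stood at -0.21 ± 0.12 with CIC::DUX4 and -0.28 ± 0.12 with CIC::NUTM1 (edgeR adjusted p 0.39 and 0.142). RPL3L and RPL10L, paralogs known from muscle and testis, had 74 and 41 counts in all 9 libraries, did not pass the filter on low counts, and were not in the edgeR test. Without the filter RPL3L, with 3, 7 and 0 counts in controls and 28, 17 and 9 with CIC::NUTM1, was called higher there (edgeR adjusted p = 0.0220, DESeq2 adjusted p = 0.0383), and RPL10L was not.

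Among 20 tested translation factors, many of them also TOP mRNAs, 0 were called with either fusion against empty vector (edgeR; also 0 by DESeq2 and limma-trend). At an unadjusted p under 0.05, 1 was lower with CIC::DUX4 and 2 were higher with CIC::NUTM1, against 6.57% and 16.6% of all genes. With CIC::NUTM1 5 of 20 lay below 0 and with CIC::DUX4 15, against 50.1% and 50.3% of all genes, and between the fusions 1 did, against 51.1%. These genes share the same libraries, the counts carry no test, and they were not repeated with single libraries left out. Between the fusions, at an unadjusted p under 0.05 (edgeR), 6 were higher with CIC::NUTM1 and 0 lower, against 10.8% and 7.37% of all genes. EEF1A1, the elongation factor that brings aminoacyl-tRNA to the ribosome, was the 1 gene called there (4.97% of all genes were called higher), with CIC::NUTM1 above CIC::DUX4 by 0.13 ± 0.04 on the log2 scale (6809 ± 106 against 6228 ± 40.1 CPM, SD, n = 3, edgeR adjusted p = 0.0488). That call held in 4 of 10 other settings and 1 of 6 fits with a library left out.

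Host genes of small nucleolar RNAs, whose spliced transcripts often carry a TOP start, gave more calls. With CIC::DUX4, 4 of 13 rose (30.8%, against 6.96% of all genes): SNHG12 by 1.00 ± 0.16, SNHG15 by 0.38 ± 0.10, SNHG1 by 0.35 ± 0.09 and GAS5 by 0.31 ± 0.09 on the log2 scale (SE; edgeR adjusted p 6.3e-05 to 0.03). SNHG12 had 13.5, 8.25 and 9.84 CPM in controls, 22.9, 18.5 and 20.9 CPM with CIC::DUX4, and 9.23, 9.48 and 9.16 CPM with CIC::NUTM1. Only the CIC::DUX4 libraries of SNHG12 were high, and its call was kept in all 6 fits with a library left out. SNHG15 kept its call in 4 of 6, and SNHG1 and GAS5 in 2 of 6 each. With CIC::NUTM1, 1 of 13 fell, against 3.83% of all genes: SNHG29, by 0.24 ± 0.08 (edgeR adjusted p = 0.0357), held in 3 of 6. Between the fusions, 6 of 13 were lower with CIC::NUTM1, against 1.64% of all genes: SNHG12 (-1.16), SNHG8 (-0.48), GAS5 (-0.47), EPB41L4A-AS1 (-0.38), SNHG15 (-0.32) and SNHG29. SNHG12 and GAS5 kept this call in 6 of 6 fits with a library left out, SNHG8 in 2, SNHG15 in 1 and EPB41L4A-AS1 in 0. The snoRNA hosts had a median log2 fold change of 0.31 in the CIC::DUX4 comparison, -0.08 in that of CIC::NUTM1, and -0.32 between them.

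Of 44 ribosome biogenesis genes, 1 rose with CIC::DUX4, TAF1D, a subunit of the RNA polymerase I factor SL1 that is itself a snoRNA host (0.46 ± 0.10, edgeR adjusted p = 0.00294). That is 2.27% of the list, below the 6.96% of all genes called higher. TAF1D had 86.6, 83.6 and 76.3 CPM, above the controls at 70.1, 55.6 and 54.0 CPM, and was lower again with CIC::NUTM1 than with CIC::DUX4 (-0.44 ± 0.10, edgeR adjusted p = 0.00747). Both calls were kept in 6 of 6 fits with a library left out. With CIC::NUTM1, 3 of 44 rose and 2 fell (6.82% and 4.55%, against 11.5% and 3.83% of all genes). NOP58, a core protein of box C/D snoRNPs, rose by 0.32 ± 0.06 (edgeR adjusted p = 0.000547, kept in 6 of 6). UTP4 and BRIX1 rose by 0.23 each and NOP10 and POLR1C fell by 0.27 and 0.25 (edgeR adjusted p 0.0207 to 0.0449), calls kept in 1 to 3 of the 6. UTP4 and BRIX1 kept their calls in 7 of 10 other settings, losing them with library totals (edgeR adjusted p 0.0784 and 0.0790), upper quartile factors and no filter. NOP10 kept its call in 9 of 10 and POLR1C in 10 of 10. NCL (nucleolin) stood higher with CIC::NUTM1 than it did with CIC::DUX4, by 0.15 ± 0.05 (edgeR adjusted p = 0.0403, kept in 0 of 6). Between the fusions, 4.97% of all genes were called higher with CIC::NUTM1 and 1.64% lower.

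Among 16 regulators of mTOR signalling and TOP mRNA translation, the clearest was RICTOR, a core subunit of mTORC2. It had 25.5, 27.3 and 20.05 CPM with the empty vector, 46.3, 42.1 and 50.7 CPM with CIC::NUTM1 and 28.4, 33.3 and 23.6 CPM with CIC::DUX4. RICTOR rose by 0.93 ± 0.12 with CIC::NUTM1 (edgeR adjusted p = 7.1e-06) and was 0.70 ± 0.12 higher than with CIC::DUX4 (edgeR adjusted p = 0.000653), both in 6 of 6 fits. EIF4EBP2, a repressor of cap-dependent translation that mTORC1 inactivates, fell with both fusions, by 0.30 ± 0.06 with CIC::NUTM1 (edgeR adjusted p = 0.00105, kept in 6 of 6) and by 0.22 ± 0.06 with CIC::DUX4 (adjusted p = 0.0281, kept in 0 of 6). EIF4EBP1 fell with CIC::NUTM1 by 0.31 ± 0.07 (edgeR adjusted p = 0.00259, kept in 6 of 6). Of the 16 genes, 2 rose and 2 fell with CIC::NUTM1, against 11.5% and 3.83% of all genes, and 1 fell with CIC::DUX4, against 1.27%. Between the fusions 1 was higher with CIC::NUTM1, against 4.97% of all genes. LARP4, which binds poly(A) tails, rose by 0.22 ± 0.07 (edgeR adjusted p = 0.0474), a call held in 2 of 10 other settings and 1 of 6 fits.

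Mitochondrial ribosomal protein genes, which are encoded in the nucleus and serve the other ribosome of the cell, were tested for 76 of 78. With CIC::DUX4, 0 were called (edgeR; also 0 by DESeq2 and limma-trend), where 8.24% of all genes were. At an unadjusted p under 0.05, 2 were higher and 3 lower, against 12.6% and 6.57% of all genes. With CIC::NUTM1, 1 rose, MRPS2, by 0.33 ± 0.07 (edgeR adjusted p = 0.00246; 11.5% of all genes rose), and 7 fell, MRPL57 (-0.39), MRPL41 (-0.35), MRPL36 (-0.34), MRPL52 (-0.32), MRPL17 (-0.32), MRPL14 (-0.24) and MRPS16 (-0.24), with edgeR adjusted p of 0.00223 to 0.0367. That is 9.21% of the list called lower, against 3.83% of all genes, and the list's median was -0.07. Outside the cytosolic set, the count ratio of short to long coding genes was also lower with CIC::NUTM1 (0.114 to 0.118) than in empty vector (0.120 to 0.130). The part of coding length in these calls was not tested. MRPL57 had 70.7, 61.2 and 67.6 CPM in controls, all above its CIC::NUTM1 libraries at 50.6, 52.3 and 49.3 CPM. MRPS2 and MRPL57 kept their calls in 6 of 6 fits with a library left out, and MRPL17, MRPL41, MRPL36 and MRPL52 in 2 to 4. Between the fusions MRPL36 was lower with CIC::NUTM1 (-0.44 ± 0.10, edgeR adjusted p = 0.00679, kept in 5 of 6), where 1.64% of all genes were called lower.

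The 9 libraries held 16970771 to 33655445 counts. Markers known from 293T were all tested and present in empty vector, from 8.12 CPM for PAX2 to 572 CPM for VIM. Of these 7, NEFM fell with both fusions (566 CPM in controls, 359.9 with CIC::DUX4, 347 with CIC::NUTM1), KRT8 rose with CIC::DUX4 (10.1 to 24.9 CPM), and CDH2, LHX1 and VIM rose with CIC::NUTM1 (edgeR). DESeq2 called 2 of those 3. Of 6 markers of other cells, CD3E, ALB, MYH6 and PECAM1 had 3 to 45 counts over all libraries and were not tested. PTPRC, of white blood cells, had 0, 0.0585 and 0 CPM in controls, 0.914, 0.144 and 0.176 CPM with CIC::DUX4 and 1.44, 0.611 and 0.673 CPM with CIC::NUTM1, and was called higher with both by edgeR (adjusted p 0.0242 and 0.00118). With CIC::DUX4 that call was lost with limma-trend (adjusted p = 0.0981) and with the replicate number as a block (edgeR adjusted p = 0.0506). COL1A1, of fibroblasts, had 34.2, 31.2 and 35.1 CPM in controls and 24.1, 29.6 and 25.04 CPM with CIC::NUTM1, where it was called lower (edgeR). The part of these markers in the results above was not tested. In these bulk samples, fewer cells and less RNA per cell cannot be told apart, and shares of counts say nothing of the total RNA of a cell.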

How the data were processed

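For 9 libraries the authors deposited a table of raw counts by Ensembl gene, and another of log2 CPM, used here only for limma-trend. Per the submitters' processing notes, STAR 2.7.10b, R 4.2.2, edgeR 3.40.2 and GRCh38 were used, with no roles named; counting program, annotation and use of strand are not given in the sources used here. Per the labels' protocols the library kit was directional. Both tables' columns carry the library names in the labels, which gave the groups. Replicates were transfected on separate days; nothing says more of their independence. Symbols were matched for 62622 of 62700 IDs.

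Counts were tested with edgeR 4.0.16 (R 4.3.3; filterByExpr, TMM, robust quasi-likelihood, 1 mean per group over all 9 libraries), with Benjamini-Hochberg adjustment over 17576 genes at 0.05. Shares were compared by exact permutation. Alternatives were other scalings, filters, DESeq2 1.42.0, limma 3.58.1, 2-group fits, a replicate block and leaving out each library. The edgeR script was tested on simulated counts. Library totals of 16970771 to 33655445 set the precision. Start windows are from RefSeq (GRCh38.p14), gene positions and coding lengths from GENCODE 29 (GRCh38). The members, gene lists and settings were chosen with earlier results of these data known. All members were counted; values of some genes are not reported here. Members named with values are those called, else the 5 highest and 5 lowest in each comparison, the 5 highest and lowest per coding length, and of other lists paralogs and ribosome components and up to 5 called genes per direction. Members were also named for their role. RPL3, RPL8, RPL29, RPL37, RPL38, RPS12 and RPS23 were named after their values were seen.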

Additional observations from a re-analysis of the deposited data

How the results depend on the processing

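Under settings that kept all libraries, members called lower with CIC::DUX4 were 1 with limma-trend (of 217 genes called lower) and 0 otherwise. With CIC::NUTM1 they were 5 with library totals, 4 with upper quartile factors, 5 without a filter and 1 with at least 10 counts in every library. All genes called lower in those settings numbered 1149, 1124, 920 and 553, in the same order. No setting called a member higher. The share difference between the fusions reversed with TMM-scaled totals (0.112 points for all members, 0.0595 for 40S, 0.0527 for 60S), as did RPS2 with CIC::NUTM1 under library totals (-0.0064) and upper quartile factors (-0.0034). Over all genes, CIC::DUX4 had 804 called higher with at least 10 counts, and 380 lower without a filter and 407 lower in the 2-group fit. CIC::NUTM1 had 1149 lower with library totals (60.7% of calls higher) and 1124 with upper quartile factors (61.7%), and CIC::NUTM1 against CIC::DUX4 had 436 lower with library totals (61.5% higher, against 75.2%). The cause was not tested.

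Leaving out each library in turn gave, with CIC::DUX4, 805 to 1258 genes higher, 60 to 229 lower, 0 to 3 members lower, 35 to 73 members below 0, RPS15A from -0.016 to 0.25, a difference in the 60S to 40S ratio from -0.0050 to 0.0102 and a correlation of length and change from -0.809 to 0.359. With CIC::NUTM1 it gave 278 to 977 genes lower, 0 to 4 members lower, RPS2 from -0.010 to 0.079 and RPL36A from -0.12 to 0.32. Between the fusions it gave 516 to 940 genes higher, 156 to 324 lower, 13 to 54 members below 0, RPS29 from -0.39 to 0.019, RPS10 from -0.076 to 0.58, and share differences from -0.32 (-0.320) to 0.146 for all members, -0.111 to 0.0664 for 40S and -0.209 to 0.0795 for 60S.

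The labels do not say whether a replicate number marks the same day in each group, so the numbers were not read as pairs. Deviations of same-numbered libraries from their group means had correlations of -0.03 to 0.08 over all genes. Over the 77 members they ran from -0.41 to 0.54, and those of the CIC::NUTM1 and CIC::DUX4 libraries were 0.353, 0.190 and 0.536. Libraries of different number ran as widely, from -0.66 to 0.65 over the members and from -0.11 to 0.07 over all genes. With the replicate number as a block, 0, 2 and 0 members were called in the 3 comparisons, as without it, among 1222, 2012 and 894 genes higher and 250, 727 and 307 lower. Low counts limit RPS10, RPL17, RPL36A and RPL26; RPL38, RPL39 and RPS29 have wide intervals and a large spread among replicates.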

Other observations

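Some genes that every cell is thought to use were listed with few or no counts, as were the 6 low ribosomal protein genes. EEF1G, a subunit of the elongation factor that recharges EEF1A1, had 0 counts in all 9 libraries while EEF1A1 stood at 6469 ± 155 CPM in empty vector (SD, n = 3). MRPL53 was also listed at 0 in all 9, and MRPS24 had 47 counts in all and at most 10 in a library. Members with low values here should be read as listed in this table, since the RNA level behind them was not measured in another way.

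Within groups, the CIC::NUTM1 libraries were the most alike for these genes: the summed share ranged over 0.247 percentage points, against 0.725 in empty vector and 0.932 with CIC::DUX4. With 3 libraries a group, this difference in spread was not tested.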
